A study of Mus musculus with 9 samples.

Results

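The immediate early transcripts of the Egr, Nr4a and Dusp families, which T cells switch on after antigen receptor signalling and which then restrain that signalling, were followed through 3 states of murine CD4+ T cells. The members were taken by name: Egr1, Egr2, Egr3, Nr4a1, Nr4a2, Nr4a3, Dusp1, Dusp2, Dusp5 and Dusp6. Of these 10 genes, 9 had a row among the 14912 rows of the deposited expression table, and Egr3 was not analysed here. The study asked what culture with colorectal tumor organoids does to CD4+ T cells, compared with a standard induction of regulatory T cells. All cells came from mice of the strain B6.Cg-Foxp3tm2(EGFP)Tch/J, hemizygous for a Foxp3 allele that reports Foxp3 with eGFP. The day 0 group held eGFP- CD4+ T cells sorted before any culture. TGFβ-iTreg cells were eGFP+ CD4+ cells sorted on day 5 from a culture that received TGFβ (10 ng/ml), IL-2 (300 U/ml) and antibodies to CD3 and CD28 (1 µg/ml of each). mTO-iTreg cells were eGFP+ CD4+ cells sorted on day 5 from a co-culture with murine colorectal cancer tumor organoids, which received less IL-2 (20 U/ml), both antibodies at that dose and, per the labels, no added TGFβ. Each group had 3 bulk RNA libraries, and the labels give neither the age of the mice nor whether the 3 libraries came from separate animals, so p-values speak only of how far these libraries scatter, which may be technical.

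T cell receptor signalling, which also activates the kinases p38 and JNK, opens a calcium branch and a Ras branch. In the first, the phosphatase calcineurin activates NFAT and Mef2 factors, and the second ends in the kinase ERK. Within minutes both branches switch on immediate early genes, among them the zinc finger factors of the Egr family and the orphan nuclear receptors of the Nr4a family, which bind DNA without a known ligand and are widely used as reporters of receptor signalling. Dual specificity phosphatases of the Dusp family remove phosphate from the kinases themselves and so close the loop, while Egr2, Egr3 and the Nr4a factors are known from anergic, exhausted and regulatory T cells.

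Immediate early promoters are known for a few short elements bound by factors that the kinases activate. RefSeq promoter windows (build GRCm38.p6, 250 bases before to 50 bases after a start site, in lower case below) were at hand for 8 of the members, in 12 windows. They were searched on both strands for the cyclic AMP response element TGACGTCA, the AP-1 element TGANTCA, the Egr element GCGTGGGCG and, by name, the CArG box that serum response factor binds. Capitals mark the matches, and 3 windows are shown because they hold one and belong to genes with contrasting patterns. The Egr2 window lies on the plus strand at chr10:67537619-67537918, the Dusp1 window on the minus strand at chr17:26508423-26508722 and the Dusp5 window on the plus strand at chr19:53528895-53529194.
Egr2: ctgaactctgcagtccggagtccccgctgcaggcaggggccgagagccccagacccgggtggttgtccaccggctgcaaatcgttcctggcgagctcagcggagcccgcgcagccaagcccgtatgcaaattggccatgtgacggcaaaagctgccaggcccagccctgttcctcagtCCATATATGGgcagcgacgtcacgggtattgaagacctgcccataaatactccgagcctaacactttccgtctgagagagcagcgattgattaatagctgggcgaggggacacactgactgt
Dusp1: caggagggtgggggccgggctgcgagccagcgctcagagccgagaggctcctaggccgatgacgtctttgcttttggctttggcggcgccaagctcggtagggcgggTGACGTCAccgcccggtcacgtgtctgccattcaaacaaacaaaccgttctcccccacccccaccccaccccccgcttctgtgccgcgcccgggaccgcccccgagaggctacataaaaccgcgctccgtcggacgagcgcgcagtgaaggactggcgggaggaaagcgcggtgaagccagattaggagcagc
Dusp5: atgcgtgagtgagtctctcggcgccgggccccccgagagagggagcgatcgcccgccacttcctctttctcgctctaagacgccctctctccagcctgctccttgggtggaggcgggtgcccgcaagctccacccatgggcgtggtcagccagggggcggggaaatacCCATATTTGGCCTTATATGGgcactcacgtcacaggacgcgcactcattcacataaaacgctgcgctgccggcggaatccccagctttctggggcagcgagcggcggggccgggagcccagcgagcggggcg
The Egr2 window holds a CArG box at position -72 from the start site, and a second, upstream Egr2 window holds another at -72 from its own start. Dusp5 carries 2 abutting CArG boxes, at -82 and -72, which overlap no other match. Dusp1 carries a cyclic AMP response element at -143. No match to any of the 4 motifs was found in the windows of Nr4a1, Nr4a2, Nr4a3, Dusp2 or Dusp6, which says only that these letters are not in those windows. Of 32851 mouse promoter windows of the same length, 1.63% held a CArG box, 1.79% the cyclic AMP response element, 7.81% the AP-1 element and 0.612% the Egr element. A match is a description of the letters, and binding was not measured here.

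Libraries were made with a modified CEL-Seq protocol, which counts tags from the 3′ end of transcripts, and held between 2078223 and 9944952 counts, so that 1 count was worth 0.494 to 2.69 units of the deposited normalized count. Differences are given on the scale of log2(normalized count + 1) with a standard error, and a gene is said to have passed when limma's p-value, adjusted by Benjamini-Hochberg over the 10983 rows tested, was under 0.05. Of 10 T cell markers 7 had rows, with summed normalized counts of 22253 to 23431 (day 0), 14368 to 17491 (TGFβ-iTreg) and 13276 to 17023 (mTO-iTreg), and none was at 0. Against day 0, 4 of the 7 fell in TGFβ-iTreg, and 5 fell and 1 rose in mTO-iTreg. The riser was Cd4, with means of 2458, 1009 and 3294, which fell in TGFβ-iTreg and was also higher in mTO-iTreg than there. Of 12 markers of myeloid and antigen-presenting cells 10 had rows; their sum was 2147, 1403 and 8322 in day 0 libraries 1, 2 and 3, 861 to 1161 among the TGFβ-iTreg libraries and 2336 to 3453 among those of mTO-iTreg, with Cd14 at 0 on day 0 and in mTO-iTreg. H2-Eb1 alone gave 1410 to 2331 of the mTO-iTreg sum, while Fcer1g, Tyrobp, H2-Aa and H2-Ab1 fell against day 0. Of 14 epithelial markers 9 had rows, which summed to 18.8 to 25.3, 139 to 152 and 43.7 to 157 in the 3 groups. Epcam (74.1 to 113) and Cdh1 (25.1 to 52.9) gave most of the TGFβ-iTreg sum, where Krt18 and Muc2 were at 0. Both Epcam and Cdh1 passed higher than day 0 in each culture. Of 5 CD8 and NK cell markers 4 had rows, with sums of 331 to 625, 176 to 251 and 95.7 to 130.3; Klrd1 among them averaged 360, 77.8 and 3.72 and fell in both cultures. Of 5 B cell markers 4 had rows, with sums of 10.5 to 57.0, 30.6 to 69.2 and 61.1 to 104, and Cd79b passed higher in mTO-iTreg than in either other group. The part of such cells in the members' levels was not tested. The library codes of mTO-iTreg have another form than those of the other groups, so a difference in library handling and the culture cannot be told apart there. The cultures also differed in IL-2, TGFβ and organoids together.

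Against day 0, Nr4a2 was higher and the phosphatases Dusp1 and Dusp6 were lower in both cultures. In TGFβ-iTreg, 1 of the 7 members tested rose (Nr4a2) and 2 fell (Dusp1 and Dusp6), where 9.78% of all rows tested rose and 8.80% fell. In mTO-iTreg, 2 rose (Nr4a1 and Nr4a2) and 3 fell (Dusp1, Dusp2 and Dusp6), where 19.4% of rows rose and 14.5% fell. Between the cultures, mTO-iTreg was higher in 1 (Nr4a1) and lower in 2 (Egr2 and Dusp2), where 14.9% of rows were higher and 11.8% lower. Both contrasts with day 0 use the same 3 day 0 libraries. Nr4a3 and Dusp5 were too low to be tested. When every library was scaled to the same total instead, the share of passing rows that rose went from 52.6% to 75.4% for TGFβ-iTreg and from 57.1% to 70.4% for mTO-iTreg against day 0, and the median of all genes from -0.02 to 0.22 and from 0.09 to 0.31. The 3 groups are bulk samples, in which fewer cells with a transcript and less of it per cell cannot be told apart.

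**Figure D1:**
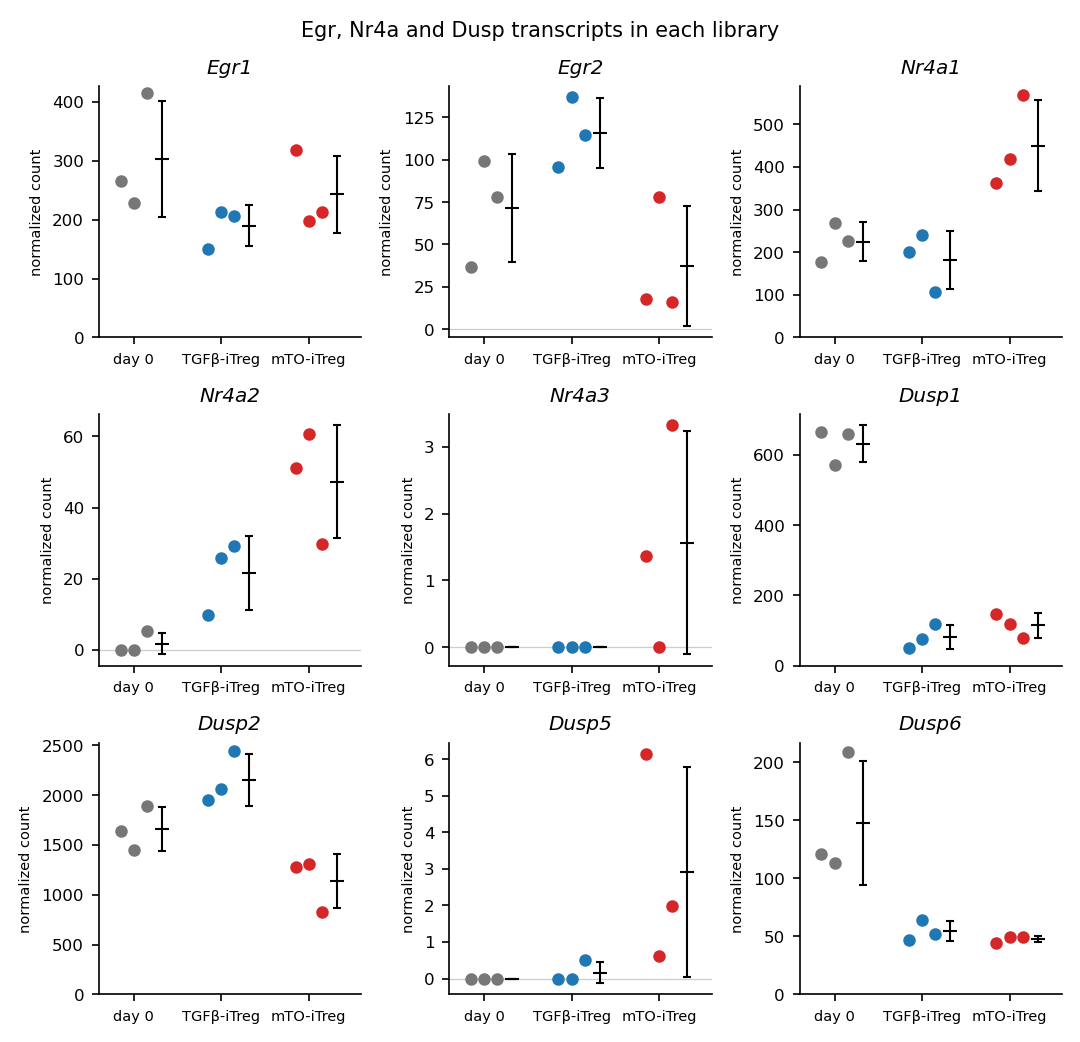
Normalized counts (linear axis from 0) of the 9 members with a row, in each of the 3 libraries of day 0, TGFβ-iTreg and mTO-iTreg; dots are libraries, and the black mark and bar beside them are the mean and SD. Nr4a1 is above 362 in every mTO-iTreg library and below 269 in the others, and Dusp1 is at 570 or more on day 0 and below 149 in both cultures.

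Nr4a1, also called Nur77, is the orphan receptor most often used to read out receptor signal strength. Its normalized counts were 177, 269 and 227 on day 0, 199, 239 and 108 in TGFβ-iTreg and 362, 419 and 568 in mTO-iTreg. All 3 mTO-iTreg libraries lay above all 6 others, and day 0 and TGFβ-iTreg overlapped. The means were 224 ± 45.9, 182 ± 67.5 and 449.6 ± 106 (SD, n = 3 each). mTO-iTreg exceeded TGFβ-iTreg 2.47-fold, by 1.35 ± 0.29 (SE) on the log2 scale (limma adjusted p = 0.0035), and this passed under all 22 alternative settings. It exceeded day 0 by 1.00 ± 0.29 (adjusted p = 0.016), a 2.00-fold difference of the means. That second call was lost without day 0 library 1 (adjusted p = 0.067), without mTO-iTreg library 3 (0.076) and without the variance trend (0.060). TGFβ-iTreg did not differ from day 0 beyond the spread (log2 difference -0.36, 95% interval -0.97 to 0.26, adjusted p = 0.43).

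Nr4a2, or Nurr1, was nearly silent before culture. It was read at 0, 0 and 5.27 on day 0, all of it the 5 counts of library 3, at 9.84, 25.8 and 29.1 in TGFβ-iTreg (4, 38 and 59 counts) and at 51.2, 60.8 and 29.9 in mTO-iTreg (218 counts). The 3 groups did not overlap and stood in the order day 0, TGFβ-iTreg, mTO-iTreg, although the lowest mTO-iTreg library and the highest TGFβ-iTreg library nearly touched. Nr4a2 rose by 3.48 ± 0.81 in TGFβ-iTreg (adjusted p = 0.0089; means 12.3-fold apart) and by 4.65 ± 0.81 in mTO-iTreg (adjusted p = 0.00060; 26.9-fold). The 2 cultures did not differ beyond their spread (1.17, 95% interval -0.57 to 2.90, adjusted p = 0.31). Because day 0 rests on 5 counts, the size of these steps is loose: without day 0 library 3 they were 4.36 and 5.53, with a pseudocount of 5 they were 1.97 and 2.99, and limma-voom on counts lost the first call (adjusted p = 0.065).

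Nr4a3, the receptor known as Nor1, had no count on day 0 or in TGFβ-iTreg. In mTO-iTreg its 3 libraries held 2, 0 and 5 counts (1.36, 0 and 3.32 normalized). A total of 0 counts allows a group mean of up to 1.59 on day 0 and 0.768 in TGFβ-iTreg by the limit of 3 counts over a group, which covers counting error only. The mTO-iTreg mean of 1.56 lies under the first limit and above the second, and no test was made. Within the Nr4a counts of a library, Nr4a2 made up 0%, 0% and 2.27% on day 0, 4.71%, 9.72% and 21.3% in TGFβ-iTreg, and 12.3%, 12.7% and 4.97% in mTO-iTreg. The shares of the 2 cultures overlapped, and library 3 was highest in TGFβ-iTreg and lowest in mTO-iTreg.

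Egr1 is the founding member of its family and a direct ERK target. It was measured at 265, 228 and 415 on day 0, 150, 214 and 206 in TGFβ-iTreg and 319, 197 and 213 in mTO-iTreg. The TGFβ-iTreg libraries lay just below all day 0 libraries, while mTO-iTreg overlapped both groups. None of the 3 differences passed: TGFβ-iTreg stood at -0.64 against day 0 (95% interval -1.21 to -0.08, adjusted p = 0.11, means 1.60-fold apart), mTO-iTreg at -0.30 against day 0 (-0.87 to 0.26, adjusted p = 0.40) and at 0.34 against TGFβ-iTreg (-0.23 to 0.90, adjusted p = 0.37). Day 0 library 3, the highest for Egr1 and for Dusp6, was also the library with the highest sum of myeloid markers, and the part of those cells in these levels was not tested.

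Egr2, a factor that restrains effector cytokine programs and marks anergic T cells, separated the 2 cultures. Its normalized counts were 36.8, 99.5 and 78.1 on day 0, 95.9, 137 and 115 in TGFβ-iTreg and 17.7, 78.2 and 15.9 in mTO-iTreg. Every mTO-iTreg library lay below every TGFβ-iTreg library, and day 0 overlapped both. The means were 71.5 ± 31.8, 116 ± 20.6 and 37.3 ± 35.4 (SD, n = 3 each). Egr2 was lower in mTO-iTreg than in TGFβ-iTreg by a log2 difference of -1.98 ± 0.55 (adjusted p = 0.017; means 3.11-fold apart). Against day 0 neither culture passed, with 0.79 ± 0.55 for TGFβ-iTreg (adjusted p = 0.36) and -1.19 ± 0.55 for mTO-iTreg (adjusted p = 0.11). mTO-iTreg library 2 stood apart from its group: without it the difference to TGFβ-iTreg was -2.70 (adjusted p = 0.0014) and that to day 0 became a call, at -1.91 (0.0076). The call between the cultures was lost without TGFβ-iTreg library 2 (adjusted p = 0.062), mTO-iTreg library 1 (0.070) or mTO-iTreg library 3 (0.075), and without the variance trend (0.057).

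The 2 Egr genes did not keep a fixed ratio. Egr2 held 12.2%, 30.3% and 15.8% of the Egr1 and Egr2 counts in the day 0 libraries, 39.0%, 39.1% and 35.8% in TGFβ-iTreg, and 5.27%, 28.4% and 6.98% in mTO-iTreg. The 95% Wilson interval of this share ran from 24.4% to 32.7% in mTO-iTreg library 2 and up to 10.2% in mTO-iTreg library 3, so library 2 differed from its group by more than counting error. Such a share does not depend on how libraries are scaled. It is a description, since 3 libraries against 3 cannot reach p = 0.05 in a 2-sided exact permutation test. The mRNA of Srf, the factor that binds the CArG boxes found near Egr2 and Dusp5, averaged 537 before culture, 263 after the TGFβ culture and 228 after the organoid culture, and the part of Srf in either gene was not tested.

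**Figure D2:**
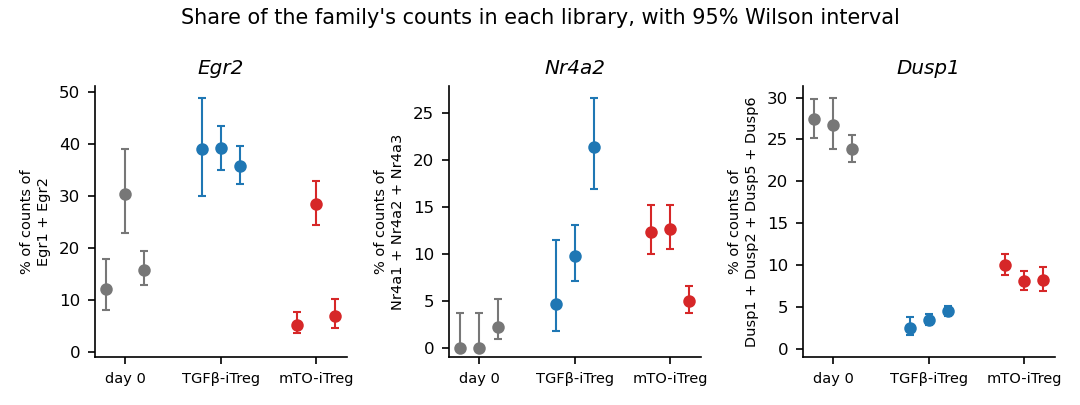
Share (in %) of a family's counts that belongs to Egr2, Nr4a2 or Dusp1 in each library, with 95% Wilson intervals for counting error; the 3 dots per group are its libraries in order of number. Egr2 takes 35.8% to 39.1% in TGFβ-iTreg and 5.27% to 28.4% in mTO-iTreg, and Dusp1 takes 23.9% to 27.5% before culture, 2.53% to 4.51% in TGFβ-iTreg and 8.09% to 10.0% in mTO-iTreg.

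Dusp1, or MKP-1, is a nuclear phosphatase that prefers p38 and JNK. It showed the largest drop of the members: 665, 570 and 657 normalized counts on day 0 became 51.7, 76.0 and 118 in TGFβ-iTreg and 148, 120 and 78.4 in mTO-iTreg. No culture library came near the day 0 libraries, and the cultures overlapped each other. Dusp1 fell by 3.01 ± 0.30 on the log2 scale in TGFβ-iTreg (adjusted p = 2.23e-05; means 7.70-fold apart) and by 2.48 ± 0.30 in mTO-iTreg (adjusted p = 3.79e-05; 5.47-fold), in each of the 22 alternative settings as well. The cultures differed by 0.52 (95% interval -0.13 to 1.17, adjusted p = 0.22). Heat shock genes, which respond to cell handling, also summed lower in both cultures than on day 0: the 10 genes of that list summed to 23971 to 38308 before culture, 16938 to 19146 in TGFβ-iTreg cells and 12672 to 14997 in those from organoids. In TGFβ-iTreg 5 of the 10 fell, in mTO-iTreg 8 fell, and none rose. Hspa1a and Hspa1b fell most, far more than the sums. Uncultured cells had a mean of 1883 for Hspa1a, against 29.0 (TGFβ-iTreg) and 0.909 (mTO-iTreg, 4 counts). For Hspa1b the means were 4956, 99.6 and 7.84, in the same order. Between the cultures, where Dusp1 did not pass, 6 of the 10 heat shock genes were lower in mTO-iTreg, again most of all Hspa1a and Hspa1b, and none was higher. Their part in the Dusp1 level was not tested. The gene overlaps others on both strands in the GENCODE annotation, and the sources used here do not state the strand used in counting.

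Dusp6, or MKP-3, acts on ERK in the cytoplasm and is itself an ERK target. Its values were 121, 113 and 209 on day 0, 46.7, 63.7 and 52.4 in TGFβ-iTreg and 44.3, 49.6 and 49.2 in mTO-iTreg. Both cultures lay below all day 0 libraries and overlapped each other closely, with means of 148 ± 53.2, 54.3 ± 8.67 and 47.7 ± 2.93 (SD, n = 3 each). The gene fell by 1.38 ± 0.33 in TGFβ-iTreg (adjusted p = 0.010) and by 1.55 ± 0.33 in mTO-iTreg (adjusted p = 0.0025). The first call was lost without day 0 library 3 (adjusted p = 0.053). Between the cultures the difference was -0.17 (95% interval -0.88 to 0.53, adjusted p = 0.73).

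Dusp2, or PAC-1, is a nuclear ERK and p38 phosphatase found mainly in blood cells, and it supplied most counts of this family. It was read at 1635, 1446 and 1889 on day 0, 1946, 2064 and 2446 in TGFβ-iTreg and 1277, 1311 and 827 in mTO-iTreg. The 3 groups did not overlap, with TGFβ-iTreg highest, day 0 between and mTO-iTreg lowest. Dusp2 was lower in mTO-iTreg than in TGFβ-iTreg by a log2 difference of -0.94 ± 0.18 (adjusted p = 0.0015; means 1.89-fold apart), under all 22 alternatives too. It fell by 0.56 ± 0.18 against day 0 in mTO-iTreg (adjusted p = 0.024; 1.46-fold), a call that was lost in 7 of the 22: with equal totals (adjusted p = 0.18), with scaling that leaves out mitochondrial genes and Rn45s (0.082), with quantile normalization (0.051), without the variance trend (0.11), and without day 0 library 1 (0.058), day 0 library 3 (0.090) or mTO-iTreg library 3 (0.10). TGFβ-iTreg stood 0.38 ± 0.18 above day 0 without passing (adjusted p = 0.16), and passed only with equal totals (0.030).

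Dusp5, a nuclear phosphatase specific for ERK, was barely detected in any group. No count was found on day 0, 1 in TGFβ-iTreg library 3, and 9, 1 and 3 in the mTO-iTreg libraries (6.14, 0.620 and 1.99 normalized). The mTO-iTreg values are the highest, but 9 of the 13 counts lie in library 1, and the gene was below the level needed for a test. Within the family's counts, Dusp1 made up 23.9% to 27.5% of a day 0 library, 2.53% to 4.51% in TGFβ-iTreg and 8.09% to 10.0% in mTO-iTreg. Dusp2 made up 67.5% to 68.6%, 93.5% to 95.2% and 86.5% to 88.5%. By this scale-free measure the 2 cultures did not overlap for either gene. Both shares are parts of the same sum, most of it Dusp2, so the Dusp1 share also moves when Dusp2 does. The normalized counts of Dusp1 overlapped between the cultures and did not pass (limma adjusted p = 0.22).

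**Figure D3:**
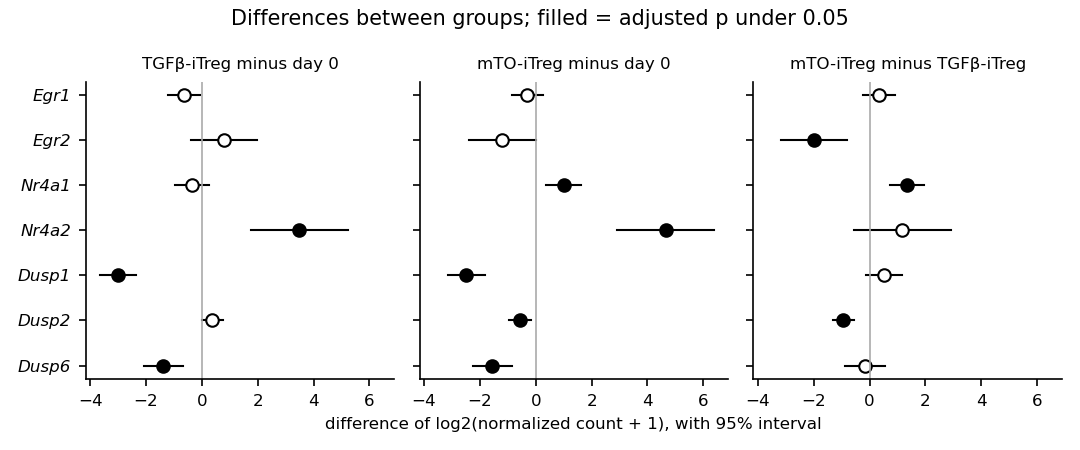
Differences in log2(normalized count + 1) between groups for the 7 tested members, with 95% intervals from limma; filled dots have an adjusted p under 0.05. Dusp1 lies at -3.01 and -2.48 against day 0, Nr4a2 at 3.48 and 4.65, and between the cultures Egr2 (-1.98) and Dusp2 (-0.94) lie left of 0 while Nr4a1 (1.35) lies right.

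The other MAP kinase phosphatases followed no common course. Of 6 genes on this list 4 were tested; in TGFβ-iTreg 1 rose and 2 fell, in mTO-iTreg 2 rose and 1 fell, and between the cultures none passed. Dusp4, a close relative of Dusp1 that acts on ERK in the nucleus, went the opposite way from it. Its values were 0, 2.69 and 8.44 on day 0, 41.8, 116 and 28.2 in TGFβ-iTreg and 216, 169 and 117 in mTO-iTreg, without overlap. It rose by 4.01 ± 0.75 in TGFβ-iTreg (adjusted p = 0.0023) and by 5.64 ± 0.75 in mTO-iTreg (adjusted p = 7.4e-05). Without day 0 library 1 these steps were 3.16 and 4.79, without day 0 library 3 they were 4.78 and 6.41, with a pseudocount of 5 they were 2.84 and 4.38, and limma-voom lost the first call (adjusted p = 0.11). Between the cultures, limma-voom gained a call for Dusp4 as higher in mTO-iTreg (adjusted p = 0.0086). That call was also gained with a pseudocount of 5 (0.035), with the 2 compared groups only (0.027) and without day 0 library 1 (0.049). Dusp10, a p38 and JNK phosphatase, fell in both cultures, from 344, 234 and 270 on day 0 to 113, 140 and 88.4 in TGFβ-iTreg (by 1.31 ± 0.26, adjusted p = 0.0039) and 96.9, 128 and 157 in mTO-iTreg (by 1.15 ± 0.26, adjusted p = 0.0042). Dusp16, which acts on JNK, rose in mTO-iTreg to 18.4, 24.8 and 23.2, from a day 0 level of 0, 0 and 1.05 (4.18 ± 1.10, adjusted p = 0.0095). Day 0 rests on 1 count of this gene, and with a pseudocount of 5 the step was 2.34. In TGFβ-iTreg Dusp16 was at 0, 27.1 and 17.3 and did not pass. Without TGFβ-iTreg library 1 it passed there too, at 4.16 (adjusted p = 0.0048), and the cultures then differed by 0.02 (0.99). Dusp7 passed in TGFβ-iTreg at -1.04 (adjusted p = 0.044), but not without day 0 library 1, 2 or 3, TGFβ-iTreg library 1 or 2, or mTO-iTreg library 1 or 2, the adjusted p then being 0.052 to 0.16. That call was also lost under 8 other alternatives, among them equal totals (adjusted p = 0.11) and limma-voom (0.13).

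Nab2, the co-repressor that binds Egr proteins and blunts their activity, differed between the cultures in the opposite direction to Egr2. Its values were 226, 207 and 188 on day 0, 78.7, 151 and 131 in TGFβ-iTreg and 337, 411 and 170 in mTO-iTreg. Within each culture, library 2 was the highest for both Nab2 and Egr2. mTO-iTreg lay above TGFβ-iTreg in every library, by 1.30 ± 0.32 (adjusted p = 0.0086), and neither culture passed against day 0. Without mTO-iTreg library 3, the lowest of its group, both did, at -0.83 for TGFβ-iTreg (adjusted p = 0.041) and 0.85 for mTO-iTreg (0.043). Nab1, its relative, passed in no comparison. Spry1, which blocks Ras activation, was the only riser in TGFβ-iTreg among 8 tested ERK feedback inhibitors outside the Dusp family. It was read at 38.6, 75.3 and 131 on day 0, 876, 1053 and 645 in TGFβ-iTreg and 77.1, 115 and 63.8 in mTO-iTreg. The rise in TGFβ-iTreg was 3.52 ± 0.37 (adjusted p = 3.7e-05), and mTO-iTreg differed from TGFβ-iTreg by -3.33 ± 0.37 (adjusted p = 3.1e-05). Of these 8 genes, 1 rose and 1 fell in TGFβ-iTreg, 2 rose and 1 fell in mTO-iTreg, and 2 were lower in mTO-iTreg than in TGFβ-iTreg.

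**Figure D4:**
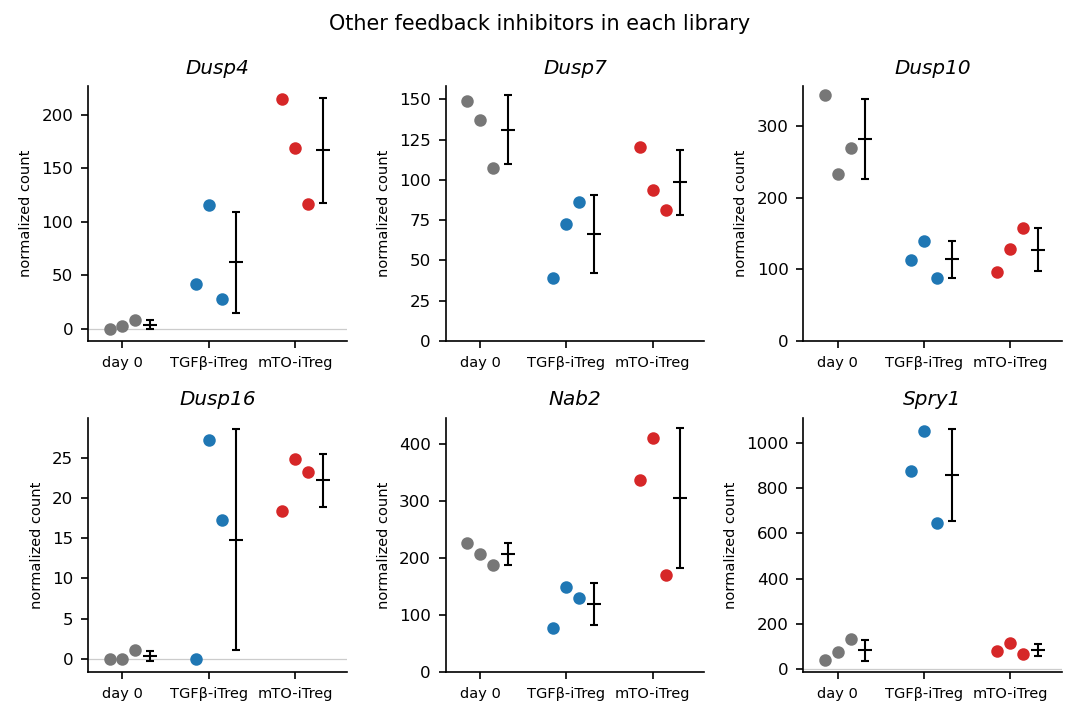
Normalized counts (linear axis from 0) of 6 feedback inhibitors that are not among the 10 members, in the 3 libraries of each group; dots are libraries, and the black mark and bar are the mean and SD. Dusp4 is 8.44 or less on day 0 and 28.2 to 216 in the cultures, Dusp10 shows the reverse, and Spry1 is 645 to 1053 in TGFβ-iTreg and 131 or less elsewhere.

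Upstream of the members, transcripts of the signalling cascade both rose and fell, but not in every list and comparison. In mTO-iTreg against day 0, the ERK list and the p38 and JNK list held falls only. Over all rows tested, 9.78% rose and 8.80% fell in TGFβ-iTreg, and 19.4% rose and 14.5% fell in mTO-iTreg, against day 0. Between the cultures, 14.9% of rows were higher and 11.8% lower in mTO-iTreg. Whether the counts of these short lists differ from such shares was not tested. Of 14 tested genes of the calcineurin, NFAT and Mef2 branch, which drives Nr4a and Egr2 transcription, none rose and 1 fell in TGFβ-iTreg, 1 rose and 1 fell in mTO-iTreg, and between the cultures 3 were higher and 1 lower in mTO-iTreg. Ppp3r1, the regulatory subunit of calcineurin, was at 150.7, 137 and 220 in mTO-iTreg and at 490 to 704 in the other 6 libraries. It was lower than in TGFβ-iTreg by a log2 difference of -1.86 ± 0.21 (adjusted p = 3.1e-05). Nfatc3, one of the NFAT factors, was higher in mTO-iTreg than in TGFβ-iTreg by 0.98 ± 0.19 (adjusted p = 0.0020), with 504 to 572 against 251 to 300. Of 14 genes of the ERK cascade, 1 rose and 3 fell in TGFβ-iTreg, 3 fell in mTO-iTreg, and between the cultures 2 were higher and 3 lower in mTO-iTreg. Braf, a kinase above ERK, was higher in mTO-iTreg than in TGFβ-iTreg by 1.29 ± 0.28 (adjusted p = 0.0043). Nras, a Ras protein at the head of the cascade, dropped by 1.22 ± 0.16 against day 0 (adjusted p = 6.0e-05). Of 8 genes of the p38 and JNK cascade, 2 rose and 2 fell in TGFβ-iTreg and 2 fell in mTO-iTreg. Of 6 serum response factor and ternary complex genes, 1 rose and 2 fell in TGFβ-iTreg and 1 rose and 1 fell in mTO-iTreg, where Srf fell by 1.17 ± 0.26 (adjusted p = 0.0037).

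The rest of the immediate early program also went in both directions. Of 27 other immediate early genes, 3 rose and 8 fell in TGFβ-iTreg, 8 rose and 13 fell in mTO-iTreg, and between the cultures 6 were higher and 10 lower in mTO-iTreg. The list's median log2 difference was -0.40, -0.29 and -0.08 in these comparisons, where the median of all genes tested was -0.02, 0.09 and 0.13. Fos, the AP-1 subunit, fell as Dusp1 did, from 3500, 2599 and 4410 on day 0 to 61.5, 80.7 and 446 in TGFβ-iTreg (by 4.70 ± 0.58, adjusted p = 0.00012) and 231, 269 and 89.0 in mTO-iTreg (by 4.27 ± 0.58, adjusted p = 9.4e-05). Without TGFβ-iTreg library 3 the first drop was -5.58. Klf10, a TGFβ-inducible zinc finger factor, had the same highest group as Nr4a1: 68.4, 53.8 and 64.4 on day 0, 83.6, 48.2 and 56.8 in TGFβ-iTreg, and 551, 545 and 596 in mTO-iTreg. It was higher in mTO-iTreg than in TGFβ-iTreg by 3.18 ± 0.26 (adjusted p = 3.1e-06). Irf4, a receptor-induced factor, rose by 2.59 ± 0.40 in TGFβ-iTreg (adjusted p = 0.00063) and stood lower in mTO-iTreg than there, by a log2 difference of -1.69 ± 0.40 (adjusted p = 0.0070).

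Genes known from tolerant or exhausted T cells, a list that includes members, went in both directions. Of 21 tested, 7 rose and 3 fell in TGFβ-iTreg, 8 rose and 4 fell in mTO-iTreg, and between the cultures 6 were higher and 2 lower in mTO-iTreg. These counts include Nr4a2 among the risers of both cultures and Nr4a1 among those of mTO-iTreg. Between the cultures they include Nr4a1 as higher and Egr2 as lower. The list's median log2 differences were 0.70, 1.00 and 0.55, against -0.02, 0.09 and 0.13 over all genes tested. The median of 1.00 is the value of Nr4a1 itself, so the list is not separate from the members. Of all rows tested, 14.9% were higher and 11.8% lower between the cultures, and the 2 lower genes of this list, Egr2 among them, are a share close to that. Tnfrsf9, the costimulatory receptor 4-1BB, was at most 51.1 before culture, 95.8 to 229 in TGFβ-iTreg and 1188 to 1494 in mTO-iTreg, where it exceeded TGFβ-iTreg by 3.14 ± 0.28 (adjusted p = 4.8e-06). Nrn1, a surface protein known from anergic and regulatory cells, was, like Egr2, highest in TGFβ-iTreg and lowest in mTO-iTreg: it stood at 80.6 to 100.0 before culture, 579 to 1429 in TGFβ-iTreg and 51.2 to 75.1 in mTO-iTreg. It was lower in mTO-iTreg than in TGFβ-iTreg by a log2 difference of -3.70 ± 0.30 (adjusted p = 3.3e-06). Dgka, a lipid kinase that damps Ras signalling and an Egr2 target in anergy, fell in both cultures, by 0.99 ± 0.12 in TGFβ-iTreg (adjusted p = 8.8e-05) and by 0.90 ± 0.12 in mTO-iTreg (adjusted p = 6.6e-05).

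For the most abundant member of each family, the 3 genes with the closest profile were taken by Pearson's r of log2 values over the 9 libraries, among 10288 genes, as a description of these libraries. For Nr4a1 they were Rps20 (r = 0.966), Secisbp2l (0.959) and Eef2k (0.958). Eef2k, a kinase that slows translation elongation, averaged 25.7, 20.3 and 61.0 in day 0, TGFβ-iTreg and mTO-iTreg cells. Rps20 changed far less than Nr4a1, with means of 24460, 23162 and 26283, since r does not measure the size of a change. For Dusp2 they were Pgpep1l (0.985), Bcl10 (0.981) and the mitochondrial transfer RNA mt-Tt (0.968). Bcl10, an adaptor between the T cell receptor and NF-κB, averaged 291, 373 and 217 in the 3 groups, in the same order as Dusp2. For Egr1 they were Rnf7 (0.916), Zfp326 (0.909) and Dnase1l3 (0.906), of which Dnase1l3 averaged 61.5 on day 0, was listed at 0 throughout TGFβ-iTreg and averaged 5.64 in mTO-iTreg. The 9 points fall into 3 groups and share their group means.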

How the data were processed

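RNA from sorted CD4+ T cells was sequenced by a modified CEL-Seq protocol, per the labels' protocols. The submitters' processing notes name BWA, mm10 and DESeq2; the sources used here give no versions, counting tool or strand. The authors deposited 1 table of DESeq2-normalized counts for 9 libraries. Dividing by each library's smallest step gave whole counts (tolerance 0.1) for 100% of values, from which depth and shares were taken; floors and intervals cover counting error only. R 4.3.3 with limma 3.58.1 fitted log2(value + 1), with 3 group means and a variance trend, for the 10983 rows that reached 5 in 3 or more libraries, with Benjamini-Hochberg adjustment at 0.05. Such differences understate the change of low genes; folds are ratios of group means. The fit was tested on simulated data. Members and lists were chosen with earlier results of these data known. All 10 members are given; other lists' named genes had the 2 largest passing differences in a direction and reached 20 in the higher group, and Nab1 was named as a relative of Nab2. Alternatives changed pseudocount, filter, scaling, model and libraries; limma-voom on counts was added after the data were seen.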

Additional observations from a re-analysis of the deposited data

Results flagged for a closer look

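Between the 2 cultures, 3 members differed in their response against the same day 0 libraries, by the test of the difference itself. Egr2 was lower in mTO-iTreg than in TGFβ-iTreg by a log2 difference of -1.98 (limma adjusted p = 0.017). Nr4a1 was higher in mTO-iTreg, by 1.35 (adjusted p = 0.0035). Dusp2 was lower in mTO-iTreg, by -0.94 (adjusted p = 0.0015). The part of IL-2 dose, TGFβ, organoids and library handling in these differences cannot be told apart in this design.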

How the results depend on the processing

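Over 22 alternatives, the 21 differences of the members gave 462 values: 444 kept direction and side of the threshold, 16 lost a call, 2 gained one and none reversed (sign changes between values that did not pass were not counted). For the other named genes, 2830 of 3036 values stayed, 169 lost a call and 37 gained one. The rows passing for TGFβ-iTreg against day 0 numbered 2040, and 1355 without a variance trend and 1142 without the shallowest day 0 and TGFβ-iTreg libraries; leaving out 1 library gave 1392 to 2002 there, 3034 to 3751 (of 3723) for mTO-iTreg against day 0 and 2211 to 3154 (of 2924) between the cultures. The members that passed for mTO-iTreg against day 0 numbered 5, and 3 without a variance trend; leaving out 1 library gave 3 to 6, with 3 both without day 0 library 1 and without mTO-iTreg library 3. For the other comparisons it gave 2 to 3. With a replicate block, 3, 5 and 3 members and 1938, 3670 and 2838 rows passed. Deviations of same-numbered libraries correlated at -0.05 to 0.06, and 5 of 9 were closest to their own number. Correlations over all rows tested cannot tell whether a shared number marks a shared animal or batch. Other scalings moved the share of rises among passing rows: scaling without mitochondrial genes and Rn45s gave 65.6% for TGFβ-iTreg against day 0. The causes were not tested. The edgeR test planned on counts was not run. Few counts limit Nr4a2 on day 0, and Nr4a3 and Dusp5 in all groups.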
